A study of Mus musculus with 16 samples.

Results

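The genes described here are 7 transcripts that encode water channels and the ion transporters that move salt and water together across the cell membrane: the aquaporins Aqp4, Aqp1, Aqp7 and Aqp11, the sodium pump subunit Atp1b1, its small regulator Fxyd1, and the sodium-potassium-chloride cotransporter Slc12a2. They were picked by symbol from the 35682 genes of the count table, and all 7 were found. Their differences between genotypes were known when they were picked, so those differences are given below as a description and carry no test. Of the 7, 6 passed the filter on low counts. Aqp11 did not.

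The samples were ventricular myocytes from 16 mice taken 9 weeks after TAC (transverse aortic constriction), an operation in which the aorta is tied narrower so that the heart works against a pressure overload. The mice were 8 wild-type (WT) animals and 8 B3AR-Tg animals, a transgenic line named for the beta-3 adrenergic receptor, and the WT mice were littermates. Every animal in both groups had the surgery, so no animal without pressure overload is part of the comparison. The promoter and the species of the transgene, the strain, and the age of the mice are not given in the sources used here. Each library was taken as 1 animal, since the titles call the samples biological replicates and give each its own ID.

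Aquaporins are membrane channels that let water cross along an osmotic gradient. Some, among them Aqp7, also pass glycerol, and Aqp8 also passes hydrogen peroxide. The sodium pump uses ATP to export sodium and import potassium. Its catalytic alpha subunit needs a beta subunit such as Atp1b1 to reach the membrane, and in heart muscle Fxyd1 (phospholemman) restrains the pump until it is phosphorylated. Slc12a2 (NKCC1) carries sodium, potassium and chloride inward together and is switched on by the kinases Stk39 and Oxsr1, which are themselves activated by WNK kinases.

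Library totals ranged from 6926821 to 11584656 counts in WT and from 5985335 to 14365864 in B3AR-Tg (exact permutation p = 0.136, two-sided). Mouse Adrb3 was at 0 to 4 counts in every library and so did not check the genotype labels. Adgrb3, a different gene, was at 0 to 3 counts in all WT libraries and at 247 to 723 in all B3AR-Tg libraries. Its relation to the transgene was not tested. Markers of cardiac myocytes were abundant, at summed levels of 45100 to 57000 in WT and 51700 to 60900 CPM in B3AR-Tg (CPM are counts scaled to a common library size with TMM factors). By the quasi-likelihood test of edgeR, 537 of 10945 tested genes passed an adjusted p of 0.05, 222 higher and 315 lower in B3AR-Tg. Scaling by library size alone gave 346 higher and 165 lower. Markers of other cells differed too. Of 13 endothelial markers, 3 were lower and 0 higher past the threshold (median log2 fold change −0.55), and of 7 tested fibroblast markers, 4 were lower and 0 higher (median −1.25), with a summed level of 40.2 to 127 in WT and 12.2 to 50.3 CPM in B3AR-Tg. All 5 load genes (Nppa, Nppb, Myh7, Acta1 and Ankrd1, which pressure overload raises in many models) were lower. In edgeR, 0 of 7 tested mural, 0 of 3 leukocyte and 0 of 3 atrial markers passed, of which 3, 2 and 0 had an unadjusted p under 0.05. In these bulk samples, fewer cells of a type and less RNA per cell cannot be told apart.

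Of the 6 genes that passed the filter, 2 passed the threshold, against 4.91% of all tested genes. Aqp4 was higher, as were 2.03% of all tested genes, and Aqp1 was lower, as were 2.88%. Since the genes were chosen with this contrast in view, nothing is read from that count. The other 4 had log2 fold changes between −0.18 and 0.24 and did not pass.

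Aqp4, the water channel best known from astrocyte end feet and also present in muscle membranes, stood at 1.52, 5.08 and 8.78 CPM (lowest, median and highest animal) in WT. In B3AR-Tg the same 3 values were 10.2, 15.9 and 26.8 CPM. The groups did not overlap: the lowest B3AR-Tg animal (replicate 3) lay above the highest WT animal (replicate 7). Among all tested genes, 0.201% had every B3AR-Tg animal above every WT animal. The raw counts behind these levels were 17 to 68 in WT and 85 to 334 in B3AR-Tg. The group means were 5.42 ± 2.34 in WT and 16.5 ± 5.61 CPM in B3AR-Tg (SD, n = 8), and the fitted difference was 3.11-fold, or 1.64 ± 0.26 (standard error) on the log2 scale.

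The difference in Aqp4 did not hang on 1 animal, since its log2 value was between 1.49 and 1.77 when each animal was left out in turn. With the endothelial or the fibroblast marker level as a covariate it was 1.58 or 1.70, about as large, but no longer past the threshold. In those fits 16 and 3 genes in all passed. The 5 glial markers summed to at most 1.66 in WT and 3.58 CPM in B3AR-Tg. Their part in the Aqp4 difference was not tested.

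**Figure D1:**
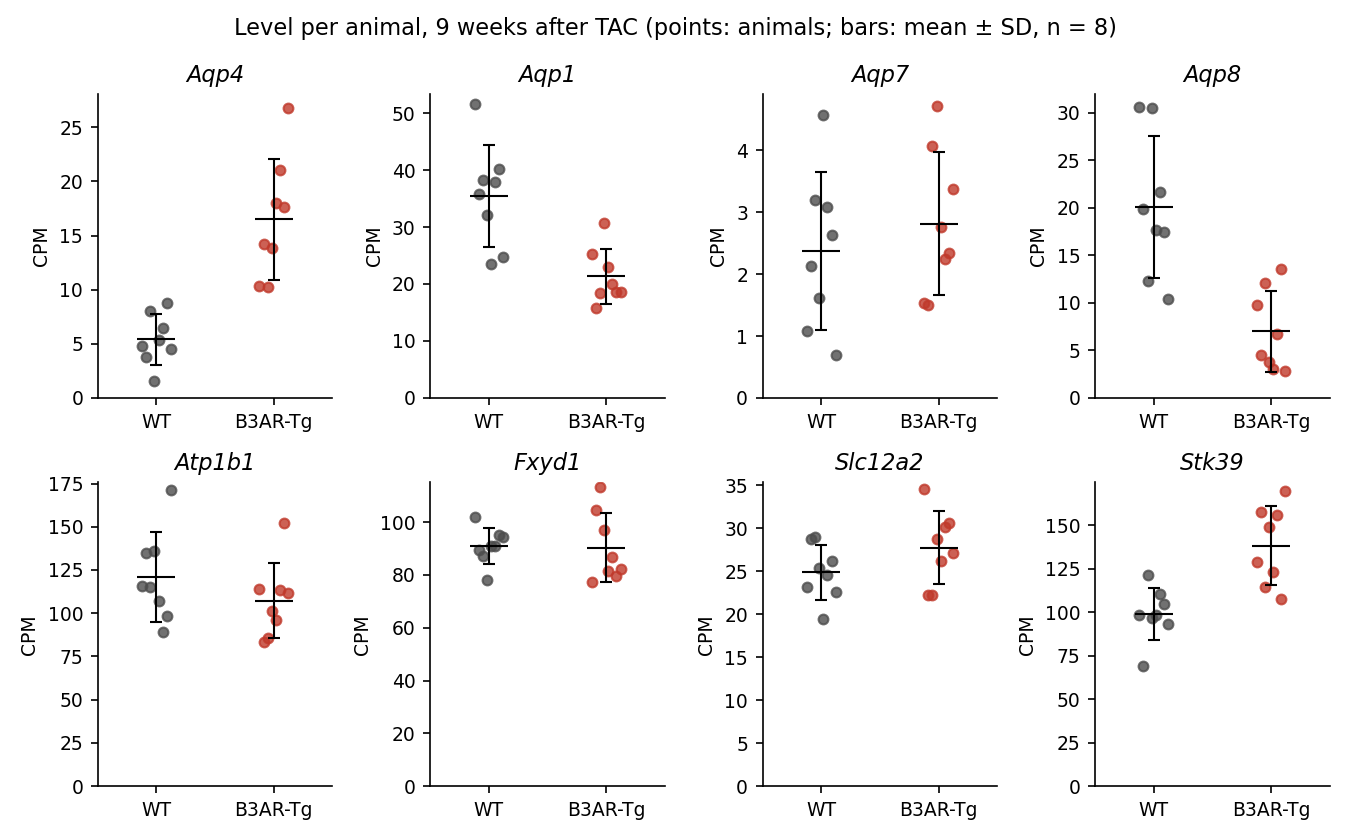
Level in each animal (points, CPM on the vertical axes) of the 6 measured genes, Aqp8 and the kinase gene Stk39 in WT and B3AR-Tg, with mean ± SD over 8 animals. The Aqp4 groups do not overlap, Aqp1 and Aqp8 are lower in B3AR-Tg with some overlap, and the ranges of Aqp7, Atp1b1, Fxyd1 and Slc12a2 overlap.

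Aqp1, the water channel of endothelium and red blood cells, was at 23.5, 36.9 and 51.6 CPM (lowest, median and highest animal) in WT. In B3AR-Tg it was at 15.8, 19.3 and 30.7 CPM. All 8 B3AR-Tg animals lay under the WT median, but the ranges overlapped, since 2 B3AR-Tg animals were above the lowest WT animal. The means were 35.5 ± 8.98 CPM and 21.3 ± 4.80 CPM (SD, n = 8), a difference of −0.74 ± 0.15 (standard error) on the log2 scale. Leaving out each animal in turn gave −0.82 to −0.64.

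Endothelial markers also tended to be lower in B3AR-Tg, with 3 of 13 past the threshold. The summed level of the 13 markers was 152 to 208 in WT and 66.9 to 256 CPM in B3AR-Tg. The value of 256 CPM was that of B3AR-Tg replicate 4, which also had the highest Aqp1 level of its group. The next highest B3AR-Tg animal, replicate 6, was at 131 CPM, under the lowest WT animal. All 13 markers had a log2 fold change below 0, from −1.37 for Vwf to −0.11 for Egfl7 with a median of −0.55. With the endothelial marker level as a covariate, the Aqp1 difference was −0.52, and with the fibroblast marker level it was −0.64. Neither passed the threshold. Red blood cell markers summed to at most 1.36 CPM in any animal. The part of endothelial and red blood cell content in the Aqp1 difference was not tested beyond these values.

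Aqp7, an aquaglyceroporin of fat cells and capillaries, was low in both groups, at 0.688, 2.38 and 4.58 in WT and 1.501, 2.54 and 4.71 CPM in B3AR-Tg (lowest, median and highest). The groups lay over each other, with 4 of 8 B3AR-Tg animals on either side of the WT median. The log2 fold change was 0.24 with a 95% interval of −0.44 to 0.92, the widest of the 6 genes. The 4 adipocyte markers did not exceed 3 counts in any library.

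Aqp11, an aquaporin of intracellular membranes, was at the limit of detection. It had 0 to 2 counts in WT and 0 to 3 counts in B3AR-Tg, and 6 of 16 libraries held any. A value of 3 counts, which corresponds to 0.201 to 0.487 CPM depending on the library, was taken as the floor. A difference in Aqp11 was not detectable at this depth.

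Atp1b1, the beta-1 subunit of the sodium pump, was at 89.3, 115 and 171 CPM (lowest, median and highest) in WT. In B3AR-Tg it was at 83.5, 107 and 152 CPM. The ranges overlapped, with 7 of 8 B3AR-Tg animals under the WT median. The highest animals were WT replicate 8 and B3AR-Tg replicate 7. The log2 fold change was −0.18 with a 95% interval of −0.45 to 0.10. With the fibroblast marker level as a covariate the estimate was 0.28, on the other side of 0. In GENCODE M21, 18.7% of the annotated exon bases of Atp1b1 overlap Nme7 on the opposite strand, and the strand setting of the counting is not given in the sources used here.

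Fxyd1 varied least, relative to its mean, of the 6 tested genes among WT animals. It was at 78.2, 90.9 and 102 in WT and at 77.3, 84.5 and 113 CPM in B3AR-Tg. The means were 91.0 ± 6.83 and 90.3 ± 13.1 CPM (SD, n = 8). The log2 fold change was −0.01 with a 95% interval of −0.19 to 0.17, and its sign turned (0.06) when libraries were scaled by their totals only.

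Slc12a2 was at 19.5, 25.0 and 28.9 in WT and at 22.2, 27.9 and 34.6 CPM in B3AR-Tg. The ranges overlapped, with 6 of 8 B3AR-Tg animals above the WT median. The log2 fold change was 0.16 with a 95% interval of −0.06 to 0.37.

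Genes of the same families and of the systems around them were taken as 9 further lists, grouped by function. These lists too were chosen with earlier results of these data known. The counts of genes past the threshold in them are therefore descriptions, and nothing is read from them. They hold 64 genes of the table, of which 40 were tested. Of these, 8 passed (2 higher, 6 lower), against 4.91% of all tested genes, and their median log2 fold change was 0.02, beside 0.01 over all tested genes. The count was 4 without WT replicate 2, WT replicate 4 or B3AR-Tg replicate 5, and 5 without WT replicate 8, B3AR-Tg replicate 1 or B3AR-Tg replicate 8. With the endothelial or the fibroblast marker level as a covariate 0 of the 8 passed. The adjusted p-values below are from edgeR over all 10945 genes.

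Among the 8 other aquaporin genes, Aqp8 alone was tested. It fell in B3AR-Tg, with means of 20.1 ± 7.45 in WT and 7.03 ± 4.26 CPM (SD, n = 8), or −1.49 ± 0.31 (standard error) on the log2 scale (adjusted p = 0.00931). WT animals were at 10.4, 18.8 and 30.6 CPM and B3AR-Tg animals at 2.81, 5.63 and 13.5 CPM (lowest, median and highest). All 8 B3AR-Tg animals lay under the WT median, and the ranges overlapped. The call held when each animal was left out. It was lost with the endothelial or the fibroblast marker level as a covariate (log2 fold change −1.57 and −1.17). Mip, Aqp6 and Aqp9 had 0 counts in every library, and Aqp2, Aqp3, Aqp5 and Aqp12 did not exceed 4 counts in any.

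The 250 bases upstream of the RefSeq starts of Aqp1 and Aqp8 are shown because these 2 water channel genes were both lower in B3AR-Tg. The windows come from RefSeq on GRCm38.p6 and are chr6:55336049-55336298 (plus strand) for Aqp1 and chr7:123462044-123462293 (plus strand) for Aqp8, each 5′ to 3′. Capitals mark a GC box. The motifs searched on both strands were the GC box GGGCGG, the TATA box TATAAA, the cyclic AMP response element TGACGTCA and its shorter form TGACG, which lies within the longer one.
Aqp1: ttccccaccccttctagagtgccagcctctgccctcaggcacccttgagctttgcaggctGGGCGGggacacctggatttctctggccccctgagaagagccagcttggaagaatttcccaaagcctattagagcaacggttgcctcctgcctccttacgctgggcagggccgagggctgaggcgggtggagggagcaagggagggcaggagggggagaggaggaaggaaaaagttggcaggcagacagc
Aqp8: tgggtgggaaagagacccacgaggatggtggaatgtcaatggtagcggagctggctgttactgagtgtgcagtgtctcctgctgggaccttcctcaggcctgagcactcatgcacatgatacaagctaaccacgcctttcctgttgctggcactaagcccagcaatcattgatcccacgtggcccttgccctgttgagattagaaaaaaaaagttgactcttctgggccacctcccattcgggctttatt
The Aqp1 window is 62% G and C and holds 1 GC box. The Aqp8 window is 52.4% G and C and holds none of the 4 motifs. Of 32851 RefSeq windows of this length, 32.7% hold the GC box, 12.4% the TATA box, 1.55% the cyclic AMP response element and 17.8% its shorter form. RefSeq windows were matched for 5 of the 7 genes. Aqp4 and Slc12a2 were not matched.

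Of 13 other sodium pump genes, 4 were tested and 1 passed. Fxyd6, a relative of Fxyd1, fell from 17.6 ± 8.68 to 9.07 ± 3.00 CPM, or −0.97 on the log2 scale (adjusted p = 0.0296). This call was lost when any 1 of 8 animals was left out: WT replicates 2, 4 and 8 and B3AR-Tg replicates 1, 2, 5, 6 and 8 (adjusted p from 0.051 to 0.0698). Its estimate was −0.20 with the fibroblast marker level as a covariate. Atp1b3, the other measured beta subunit, had means of 23.2 ± 2.13 CPM in WT against 23.1 ± 0.856 CPM in B3AR-Tg (SD, n = 8), a difference of −0.01 on the log2 scale (95% interval −0.16 to 0.15).

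Of 6 cotransporter kinase genes, 5 were tested and 1 passed. Stk39 (SPAK), which phosphorylates Slc12a2, rose from 99.0 ± 15.1 to 138 ± 22.7 CPM, by 0.48 ± 0.11 (standard error) on the log2 scale (adjusted p = 0.0159). All 8 B3AR-Tg animals were above the WT median, and the call held when each animal was left out. It was lost with the endothelial or the fibroblast marker level as a covariate (log2 fold change 0.44 and 0.33). Oxsr1, the closest relative of Stk39, had a log2 fold change of −0.13 (adjusted p = 0.262), with 8 of 8 B3AR-Tg animals under the WT median. Wnk2 was at 0.51 (adjusted p = 0.116), and Wnk1 and Wnk4 were at 0.07 and −0.07.

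None of the 4 tested other cation-chloride cotransporters passed at this threshold in edgeR, and 0 of them had an unadjusted p under 0.05. The value farthest from 0 after that of the scarce Slc12a5 (0.30) was that of the potassium-chloride exporter Slc12a7 (0.22, 95% interval −0.02 to 0.45). Of the 6 tested volume-regulated chloride channel genes, 0 passed and 0 had an unadjusted p under 0.05. Lrrc8a, the obligatory subunit of that channel, was at −0.22 (interval −0.48 to 0.05).

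Of the 4 tested genes of osmolyte transport, 1 passed. Slc6a6, the taurine transporter, fell from 93.0 ± 51.0 to 47.9 ± 8.23 CPM, or −0.96 on the log2 scale (adjusted p = 0.0207). All 8 B3AR-Tg animals were under the WT median, and its range in WT reached from 53.0 to 194 CPM. The call was lost with either marker covariate (−0.63 and −0.42). Nfat5, the transcription factor of the response to high salt, was at 0.40 (adjusted p = 0.274).

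Of the 6 tested sodium and bicarbonate exchange genes, 1 passed. Slc4a4, a sodium-bicarbonate cotransporter, rose from 49.5 ± 6.73 to 66.7 ± 15.3 CPM, or 0.43 on the log2 scale (adjusted p = 0.0487). This call was kept only without WT replicate 3 or without B3AR-Tg replicate 2, 3 or 4, and was lost when any of the other 12 animals was left out (adjusted p from 0.0527 to 0.104). The sodium-calcium exchanger Slc8a1 (−0.19) did not pass (adjusted p = 0.443).

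Of the 6 genes that hold aquaporin-4 at the membrane, 2 passed, both lower. Sntb1, which encodes beta-1 syntrophin, fell from 3.95 ± 2.62 to 0.959 ± 0.446 CPM, a difference of −2.07 ± 0.39 (standard error) on the log2 scale (adjusted p = 0.00590). Counts of Sntb1 were low, at 8 to 104 in WT and 3 to 16 in B3AR-Tg. Dtna, alpha-dystrobrevin, fell from 100.2 ± 4.53 to 82.9 ± 8.23 CPM, or −0.27 on the log2 scale (adjusted p = 0.0284). In TMM-scaled CPM its groups did not overlap, as for 0.247% of tested genes. The gap was narrow, with the highest B3AR-Tg animal at 91.64 and the lowest WT animal at 92.45 CPM. The Dtna call was lost without WT replicate 2, WT replicate 4 or B3AR-Tg replicate 5 (adjusted p from 0.0502 to 0.0654) and with library-size scaling. So 0 of these 6 genes were higher past the threshold.

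Of the 4 tested genes of glycerol use, 1 passed. Gpd1, the cytosolic glycerol-3-phosphate dehydrogenase, fell from 47.2 ± 15.1 to 31.8 ± 4.99 CPM, or −0.57 on the log2 scale (adjusted p = 0.0454). The call was kept only without WT replicate 3, WT replicate 7 or B3AR-Tg replicate 3, and was lost when any of the other 13 animals was left out (adjusted p from 0.0512 to 0.0975). Gk, glycerol kinase, was at −0.31 (adjusted p = 0.0556).

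**Figure D2:**
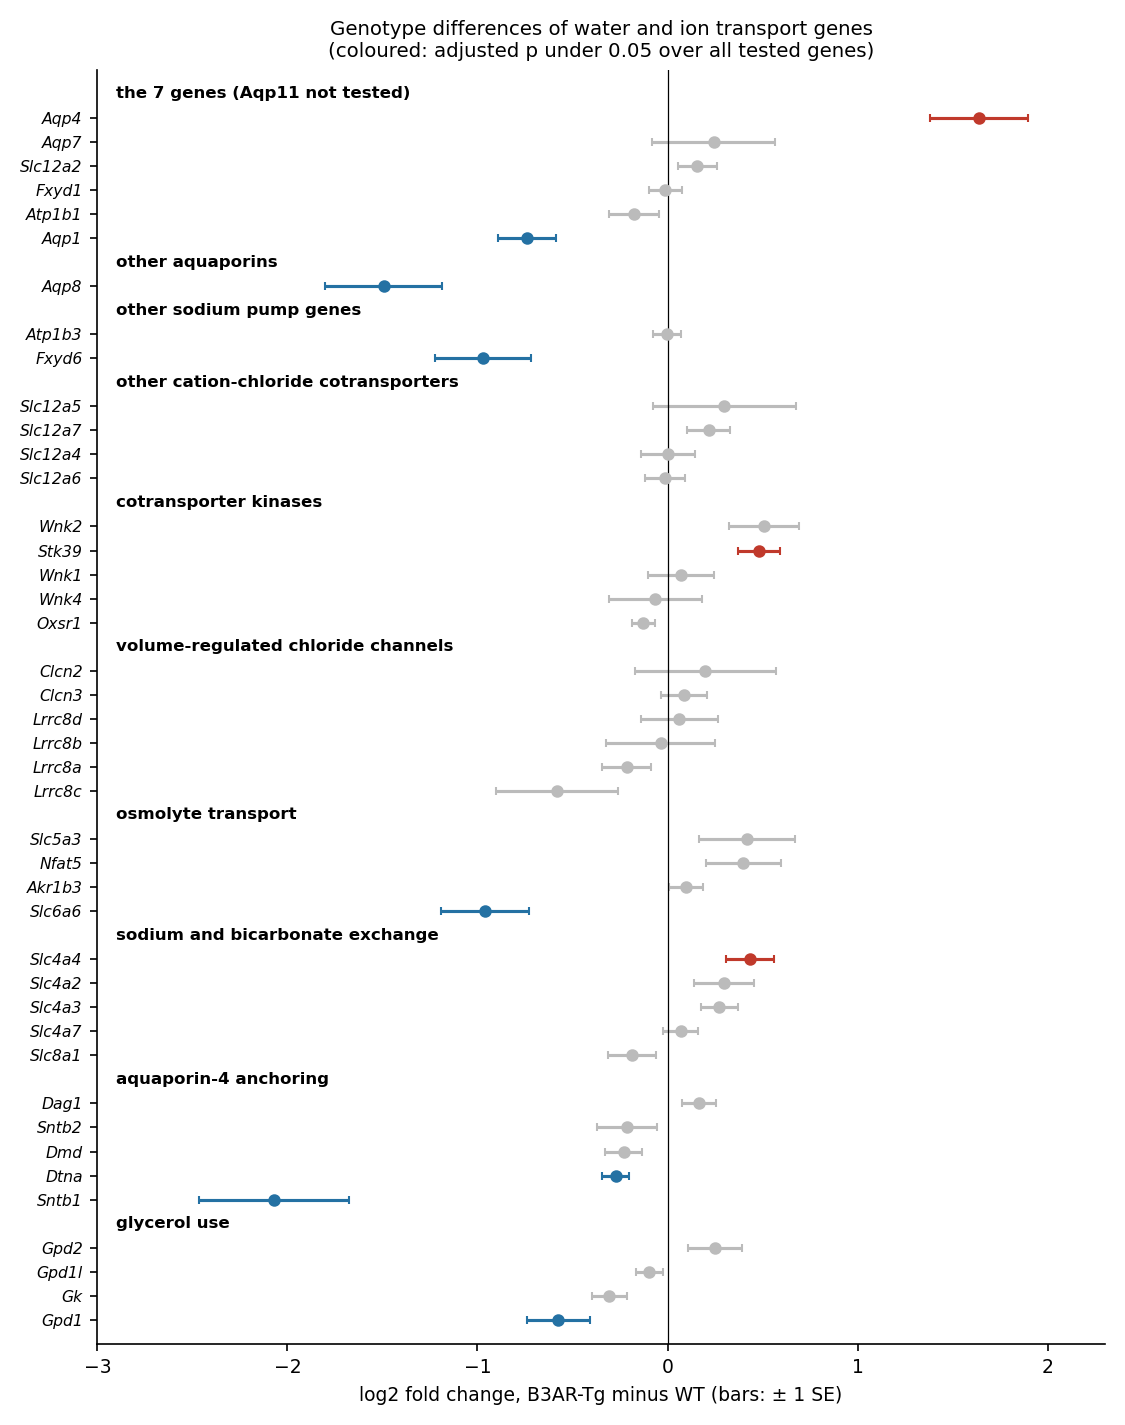
Log2 fold change of B3AR-Tg against WT with ± 1 standard error for the 6 measured genes and 36 of the 40 tested related genes, by list, with genes past an adjusted p of 0.05 in colour (red higher, blue lower). Aqp4 (1.64) is the highest value plotted, and Sntb1 (−2.07) and Aqp8 (−1.49) are the lowest.

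Levels were compared between genes only after division by length, as CPM per kilobase of annotated exons (GENCODE M21). Of the 6 genes in WT, Fxyd1 at 41.6 ± 3.12 and Atp1b1 at 39.3 ± 8.43 CPM per kilobase stood highest (SD, n = 8). Their ranges overlapped, so their order is not set beyond the spread between animals. It also depends on the length used, since Fxyd1 has 2186 annotated exon bases but a longest transcript of 668. Aqp1 (13.5 ± 3.42) and Aqp8 (12.7 ± 4.71) followed in WT and did not differ beyond their spread, then Slc12a2 (2.28 ± 0.292). Aqp4 (0.869 ± 0.376) and Aqp7 (0.840 ± 0.449) were lowest of the 6 genes and again overlapped. In B3AR-Tg, Aqp4 was at 2.65 ± 0.900 and Slc12a2 at 2.54 ± 0.388 CPM per kilobase, with overlapping ranges. By the longest transcript in place of all exons, these 2 levels were 3.26 and 4.25.

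The makeup of the aquaporin transcripts follows from these levels and is given as a description. Of the summed level per kilobase of Aqp1, Aqp8, Aqp4 and Aqp7, Aqp1 made up 48.9% ± 7.27 in WT and 50.4% ± 9.57 in B3AR-Tg (SD, n = 8). The share of Aqp8 was 44.6% ± 8.52 and 26.4% ± 13.2, and that of Aqp4 was 3.32% ± 1.56 and 17.0% ± 7.04. The Aqp4 share was at most 5.22% in WT and at least 9.20% in B3AR-Tg. The Aqp8 share overlapped, at 31.5% to 59.7% in WT and 12.4% to 44.4% in B3AR-Tg. Aqp7 took 3.18% ± 2.01 and 6.15% ± 2.26. A share does not show a level. Per kilobase, Aqp1 was at 13.5 in WT and 8.12 CPM in B3AR-Tg, and Aqp8 at 12.7 and 4.45. Aqp7 was at 0.840 and 0.996 CPM per kilobase. These shares rest on the contrast by which the genes were picked and are not tested.

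**Figure D3:**
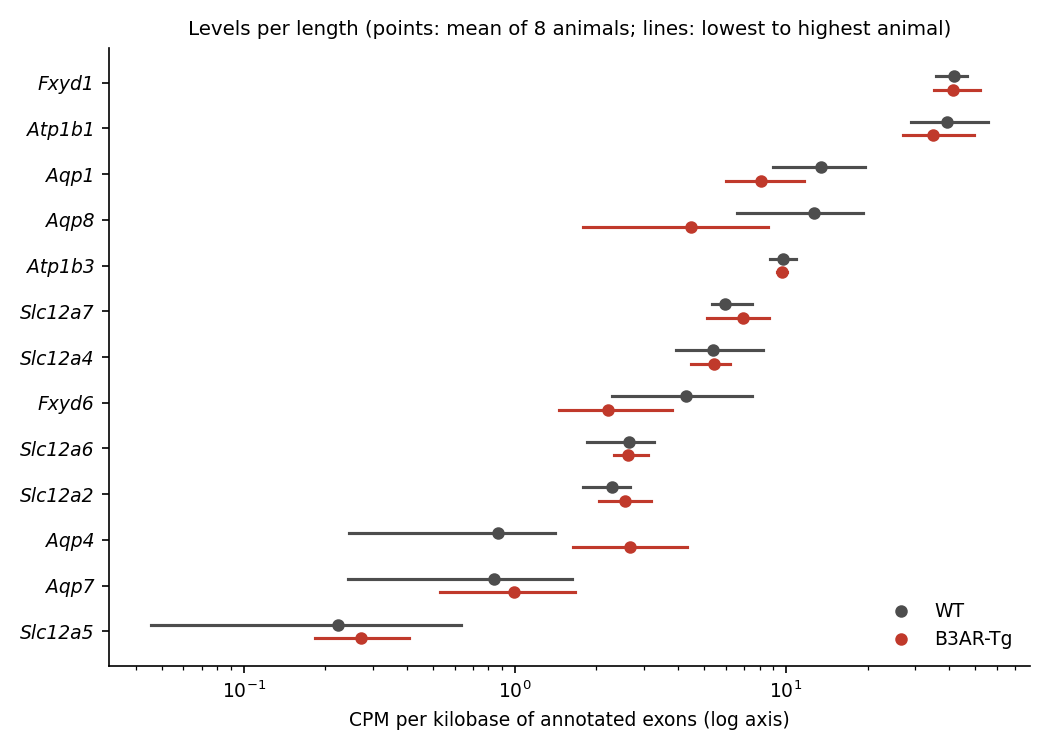
Level per kilobase of annotated exons (log axis) of 13 aquaporin, sodium pump and cation-chloride cotransporter genes in WT (grey) and B3AR-Tg (red); points are means of 8 animals and lines run from the lowest to the highest animal. Fxyd1 and Atp1b1 stand highest of the genes plotted, and Aqp4 lies below Slc12a2 in WT (0.869 against 2.28) and beside it in B3AR-Tg (2.65 against 2.54).

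Variation among animals of 1 genotype does not use the difference by which the genes were picked, so it was tested. The genes and lists were still chosen with earlier results of these data known. Each of the 6 genes was set against a score of endothelial markers, of fibroblast markers and of the 5 load genes, separately in WT and in B3AR-Tg, with 8 animals each. Of these 36 relations, 0 passed after Benjamini-Hochberg adjustment, and 4 had an unadjusted exact permutation p under 0.05 for Pearson's r.

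Aqp4 was lower in WT animals with higher load genes (r = −0.748, exact permutation p = 0.0179, adjusted p = 0.215; Spearman rho = −0.833, p = 0.0154, n = 8). Without the 2 animals farthest from the median score r was −0.590, and with scaling by library size only it was −0.627 over the 8 animals (exact permutation p = 0.0769, adjusted p = 0.346). The lowest WT value of Aqp4, in replicate 4, fell together with the second-highest load score of that group. In B3AR-Tg r was −0.339 (exact permutation p = 0.418, adjusted p = 0.833; rho = −0.548, p = 0.171), and −0.509 without the 2 farthest animals.

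Atp1b1 was higher in WT animals with higher load genes (r = 0.800, exact permutation p = 0.0157, adjusted p = 0.215; rho = 0.738, p = 0.0458), and r was 0.830 without the 2 farthest animals. In B3AR-Tg r was 0.430 (exact permutation p = 0.283, adjusted p = 0.784; rho = 0.214, p = 0.619). It turned to −0.326 without the 2 farthest animals. Atp1b1 also ran with fibroblast markers in B3AR-Tg (r = 0.754, exact permutation p = 0.0271, adjusted p = 0.244; rho = 0.762, p = 0.0368; 0.727 without the 2 farthest animals).

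Aqp1 ran with endothelial markers in B3AR-Tg (r = 0.862, exact permutation p = 0.00613, adjusted p = 0.215; rho = 0.786, p = 0.0279, n = 8). This relation rested on 2 animals, replicates 2 and 4, which were lowest and highest on both axes: without them r was 0.323 (exact permutation p = 0.514). With scaling by library size only, r was 0.866 and its adjusted p 0.0464. In WT, r was −0.0653 (exact permutation p = 0.872, adjusted p = 0.924; rho = −0.0952, p = 0.840), and 0.544 without the 2 farthest animals.

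The same 6 relations were computed for Aqp8, chosen after its difference between genotypes was seen. In B3AR-Tg it was higher in animals with higher load genes (r = 0.885, exact permutation p = 0.000223, adjusted over the 6 relations p = 0.00134; rho = 0.952, p = 0.00114, n = 8). Without the 2 farthest animals r was 0.875, but the relation no longer passed (exact permutation p = 0.0292, adjusted p = 0.175, n = 6). In WT r was 0.144 (exact permutation p = 0.725, adjusted p = 0.901; rho = 0.262, p = 0.536), and −0.300 without the 2 farthest animals. Whether the relation differs between genotypes was not tested. Against endothelial and fibroblast markers, r of Aqp8 was between −0.146 and 0.296 in the 2 genotypes (exact permutation p from 0.454 to 0.901, each with an adjusted p of 0.901).

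**Figure D4:**
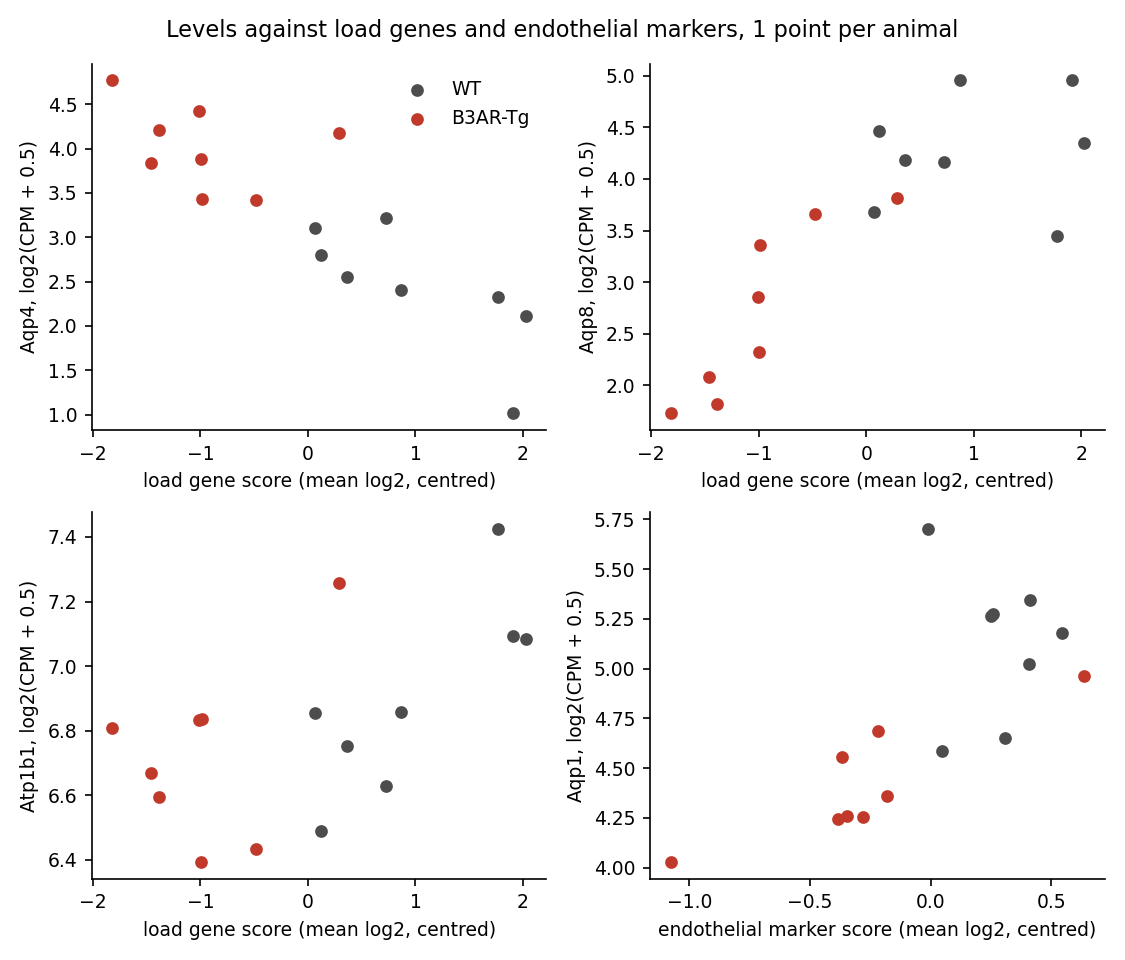
Log2(CPM + 0.5) of Aqp4, Aqp8 and Atp1b1 against the load gene score, and of Aqp1 against the endothelial marker score, with 1 point per animal (grey WT, red B3AR-Tg). Among B3AR-Tg animals, Aqp8 rises along the load score (r = 0.885), and the Aqp1 relation is set by the 2 end points.

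The 6 genes were also set against each other. Of 30 relations between pairs within a genotype, 0 passed after adjustment, and 4 had an unadjusted exact permutation p under 0.05. In WT this was Aqp7 against Atp1b1 (r = −0.729, exact permutation p = 0.0400, adjusted p = 0.300), with r = −0.135 in B3AR-Tg. The others were in B3AR-Tg. For those pairs, r in WT was 0.0118 (Slc12a2 with Atp1b1), −0.296 (Slc12a2 with Fxyd1) and −0.181 (Fxyd1 with Atp1b1). Their exact permutation p in WT was 0.978, 0.481 and 0.678. Whether these relations differ between genotypes was not tested. In B3AR-Tg, Slc12a2 ran with Atp1b1 (r = 0.768, exact permutation p = 0.0247, adjusted p = 0.300; rho = 0.929, p = 0.00223; 0.858 without the 2 animals farthest on Atp1b1). It ran against Fxyd1 (r = −0.809, exact permutation p = 0.0156, adjusted p = 0.300; rho = −0.786, p = 0.0279), where r was −0.328 without the 2 farthest animals. Fxyd1 and Atp1b1, which are parts of the same pump complex, ran opposite to each other in B3AR-Tg (r = −0.744, exact permutation p = 0.0310, adjusted p = 0.300; rho = −0.786, p = 0.0279; −0.776 without the 2 farthest animals).

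The genes most like each of the 6 were found by Pearson's r of log2(CPM + 0.5) over all 16 animals after each genotype mean was removed. All genes of a library share its depth and its makeup of cells, and the closest of 10945 genes are by construction high, so these values are descriptions. Which genes come closest depends on the scaling: by library size only, 1 of the 3 closest genes was kept for Aqp1, Atp1b1 and Slc12a2, and 2 of 3 for Aqp4, Aqp7 and Fxyd1. With TMM scaling, Aqp4 was closest to Nadk2 (r = 0.862), Fan1 (0.850) and Apln (0.825). Apln was close mainly within WT, with r = 0.967 there and 0.366 in B3AR-Tg. Aqp1 was closest to Xdh (0.915), Tgtp2 (0.860) and Gvin2 (0.851), of which Tgtp2 and Gvin2 belong to interferon-inducible GTPase families. Atp1b1 was closest to Lgi2 (0.935), Ckap4 (0.900) and Ccnd1 (0.897). Fxyd1 was closest to Chchd10 (0.886), Cdc34 (0.884) and Mrpl53 (0.863), and Slc12a2 to Tent4a (0.888), Foxk1 (0.885) and Ubap2 (0.849). Aqp7 was closest to St8sia4 (0.849), Cngb3 (0.844) and N4bp2 (0.827). None of these 18 genes is in the lists above.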

How the data were processed

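Ventricular myocytes of 16 mice were profiled by ribosome-depleted, stranded, paired-end RNA sequencing, per the labels' protocols: hearts were perfused by the Langendorff method and the cells plated for an hour before RNA extraction. The values the authors deposited are counts, whole numbers for each gene and animal, with no normalization. The submitters' processing notes name Salmon and GRCm39; the role of Salmon, the annotation and the strand setting are not given in the sources used here. Groups and replicate numbers came from the sample titles. Nothing else states where the replicates came from, so p-values measure the spread between these samples.

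Counts were tested with edgeR 4.0.16 in R 4.3.3 (TMM factors, filterByExpr with a minimum count of 10 and total of 15, quasi-likelihood F test on genotype, Benjamini-Hochberg over 10945 genes, two-sided). Standard errors are the log2 fold change over the square root of F, and 95% intervals use the fit's degrees of freedom. CPM are TMM-scaled, and a value of 3 counts was the floor, for counting error only. Alternatives were other scalings and filters, DESeq2 1.42.0, limma 3.58.1 (voom), a replicate block, 2 marker covariates, removal of mitochondrial genes with Gm20594, and each animal left out. Correlations used exact permutation over 40320 pairings on log2(CPM + 0.5). In simulated data of 10862 genes in which 200 differed by 1 on the log2 scale, the test found 82.5% with 1.79% false calls; with 0.5, over 10855 genes, it found 32.5%. The 7 genes and all lists were chosen with earlier results of these data known. Named related genes are those past the threshold, up to 4 a list, and the 3 genes most like each of the 6; others were named after their values were seen. Some genes counted in the lists are not reported here by name. Lengths come from GENCODE M21 (35394 of 35682 gene IDs matched), which is on GRCm38.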

Additional observations from a re-analysis of the deposited data

Results flagged for a closer look

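In 40 groups of 8 values (the 16 named genes that were tested, 3 marker scores and the library totals, in each genotype), the highest and lowest animals were searched for a gap to their neighbour larger, as a share of the group's range, than Dixon's 95% critical value. Chance alone gives about 1 such group in 20, or 2 here, and 1 was found. Stk39 was low in WT replicate 2, at 69.2 CPM, while the remaining WT animals lay between 93.0 and 121 CPM. The gap was 0.5261 of the range on the log2 scale, just over the critical value.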

How the results depend on the processing

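The count of genes past the threshold was 537. It was 230 with the replicate block, 16 with the endothelial and 3 with the fibroblast marker covariate, and 272 to 675 when each animal was left out (272 without WT replicate 4, 277 without B3AR-Tg replicate 5, 345 without B3AR-Tg replicate 8). DESeq2 called 804. Of the 7 genes, 2 passed in edgeR and in 25 of 27 alternatives, and 0 with either marker covariate; leaving out each animal gave 2 to 2. Of the related genes, 8 passed, 3 with the replicate block, 0 with either covariate, and 4 to 10 when each animal was left out (4 without WT replicate 2, WT replicate 4 or B3AR-Tg replicate 5; 5 without WT replicate 8, B3AR-Tg replicate 1 or B3AR-Tg replicate 8). Both scores differed with genotype (by −0.55 and −1.25), and what they remove from the difference was not tested. Of the 36 within-genotype relations 0 passed, but 1 passed with library-size scaling. Replicate numbers did not pair the animals: deviations of same-numbered animals correlated between −0.251 and 0.0953, and 0 of 16 animals correlated best with their own number. With the block, Aqp4, Aqp1, Aqp8, Slc6a6 and Sntb1 still passed and Fxyd6, Stk39, Slc4a4, Dtna and Gpd1 did not. Library-size scaling ended the calls of Fxyd6, Dtna and Gpd1, the loosest filter those of Dtna and Gpd1, and DESeq2 size factors in edgeR that of Slc4a4. No named gene past the threshold changed sign in any of the 27 alternatives. Depth limits Aqp11. Counts were also low for Aqp7 (7 to 35 in WT, 17 to 42 in B3AR-Tg) and Sntb1 (8 to 104 and 3 to 16). The part of counting error in their spread was not tested.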
